A study of Homo sapiens with 60 samples.

Results

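The mitochondrial genome transcripts described here are the RNAs of all 37 genes of the human mitochondrial chromosome, taken by their MT- symbols from the 60675 genes of the deposited table. They comprise 13 mRNAs, 2 ribosomal RNAs and 22 transfer RNAs, and the 391 nuclear genes named as copies of them were left out. The set takes every gene of that chromosome, whatever its measured value, and was chosen with earlier results of these data known. Of the 37 genes, the 13 mRNAs and 2 rRNAs passed the filter on low counts and were tested, while none of the 22 tRNA genes did.

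RNA of HT29, a human colorectal adenocarcinoma line (HTB-38), was sequenced after 24 h with a herbal extract or vehicle, in 60 libraries of 25 groups. Vehicle (n = 3) was DMSO, given as 0.1% in the sample labels and as 2% in the text of the series. Sayeok-tang, with 3 libraries a dose, and Bojungikgi-tang, with 2, are formulas of several herbs extracted in water. Fresh ginger (Zingiberis Rhizoma Recens), dried ginger (Zingiberis Rhizoma), Pinelliae Tuber and Scutellariae Radix, a skullcap root, are ethanol extracts with n = 3 per dose. Coptidis Rhizoma, a rhizome known for berberine, and Zizyphi Fructus, the jujube fruit, are ethanol extracts with 1 library per dose. The high, medium and low doses were 500, 100 and 20 µg/mL, and for Coptidis Rhizoma 320, 64 and 12.8 µg/mL. The series text says that extracts whose IC20 was under 500 µg/mL were given from the IC20 downward. The labels are silent on whether replicates came from separate cultures, and the spread behind each p-value may therefore be technical. The sample codes put vehicle in a set of its own and Coptidis Rhizoma with Zizyphi Fructus in another, so a contrast with vehicle is also a contrast of code sets.

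The mitochondrial genome is a small circle, and both of its strands are transcribed by the polymerase POLRMT with the factor TFAM into long precursors. Transfer RNAs lie between most of the longer genes, and their excision frees the rRNAs and mRNAs. The mRNAs encode core subunits of the respiratory chain complexes I, III and IV and of the ATP synthase, and the rRNAs build the ribosome that translates them. All other proteins of these machines come from nuclear genes.

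The order of the genes decides which of them come from the same precursor. In GRCh38 28 of the 37 genes lie on the plus strand of the annotation, including both rRNAs and 12 mRNAs. MT-RNR1, the small rRNA (ENSG00000211459), occupies chrM:648-1601, and MT-RNR2, the large rRNA (ENSG00000210082), occupies chrM:1671-3229. MT-ND1 and MT-ND2 follow, then the genes from MT-CO1 to MT-ND4, then MT-ND5 at chrM:12337-14148 and MT-CYB at chrM:14747-15887. MT-ND6, at chrM:14149-14673, is the only mRNA of the minus strand, which also holds 8 tRNAs, and its 3′ end lies next to that of MT-ND5.

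The first sequences show the borders of the rRNA block that the Coptidis Rhizoma results turn on, with the tRNA gene that parts the rRNAs. They are bases of the plus strand of GRCh38, 5′ to 3′, all in lower case.
MT-RNR1 first 60, chrM:648-707: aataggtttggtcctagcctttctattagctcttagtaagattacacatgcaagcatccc
MT-TV, chrM:1602-1670: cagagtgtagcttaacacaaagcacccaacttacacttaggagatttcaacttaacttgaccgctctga
MT-RNR2 last 60, chrM:3170-3229: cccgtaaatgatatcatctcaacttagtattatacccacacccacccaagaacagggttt

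The next sequences are the stretches that neighbouring mRNA genes share, where a read cannot be given to 1 gene from its sequence alone. Both are plus strand, and the capitals mark the start codon of the second gene of each pair.
MT-ATP8/MT-ATP6 overlap, chrM:8527-8572: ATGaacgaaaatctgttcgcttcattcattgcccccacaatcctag
MT-ND4L/MT-ND4 overlap, chrM:10760-10766: ATGctaa

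The last set gives the 3′ ends of 4 mRNAs that the results name, each in the direction of its own transcript. Capitals mark the bases of the stop codon that the gene encodes. MT-CO3 encodes 1 base of it, and the rest is added with the poly(A) tail, a step known for several of these mRNAs.
MT-CO3 last 30, chrM:9961-9990, plus strand: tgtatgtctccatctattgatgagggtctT
MT-ND4L last 30, chrM:10737-10766, plus strand: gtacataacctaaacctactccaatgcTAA
MT-ND5 last 30, chrM:14119-14148, plus strand: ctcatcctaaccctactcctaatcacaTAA
MT-ND6 last 30, chrM:14149-14178, minus strand: attgtaattgagattgctcgggggaatAGG

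Total counts ran from 18.02 to 35.82 M per library (M for 1000000, median 24.46 M). All 9 markers of colon epithelium had a median above 1 CPM (counts per 1000000 counts of the library), and their sum ranged from 8976 to 14330 CPM. Of 10 markers of other cell types 4 passed 1 CPM, with a sum of 10.27 to 22.03 CPM over all 10. Those 4 were CD68 (median 5.94 CPM), CD14 (3.33), PECAM1 (1.805) and COL1A1 (1.34). The epithelial markers CEACAM5 (5.80) and CDX2 (5.55) had medians just below that of CD68. PTPRC, CD3E, COL1A2, DCN and ALB had a median of 0. Vehicle replicate 1, Pinelliae Tuber high-dose replicate 2 and Scutellariae Radix low-dose replicate 3 stood apart from the others in mitochondrial or ribosomal protein share, and values with and without them are given where a result rests on them.

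In the 57 libraries without Coptidis Rhizoma, mitochondrial RNAs made up 5.94% to 14.3% of all counts (median 7.30%). Pinelliae Tuber high-dose replicate 2 was the highest, and the next highest library, Zizyphi Fructus at the high dose, had 9.15%. Vehicle had 8.86%, 7.62% and 8.22% (mean 8.23% ± 0.622, SD, n = 3). The mRNAs took 5.19% to 12.6% of all counts and the rRNAs 0.744% to 1.67%. Each rRNA count thus stood against 5.09 to 7.64 mRNA counts (median 6.64). These ratios reflect what the library preparation captured and are not copy numbers in the cell.

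The tRNA genes were close to absent from the counts. All 22 are 59 to 75 bases long, shorter than 1 read of 100 bases. Over 60 libraries they held 30 counts, in 7 genes, and the other 15 were at 0 in every library. MT-TA, the alanine tRNA, had 9 of these counts and MT-TQ, the glutamine tRNA, had 7. In 38 libraries no tRNA count was found, and the largest count in a library was 4. A count of 0 allows up to 0.167 CPM in the smallest library and 0.0838 CPM in the largest, as counting error only. A ratio of tRNA to mRNA could therefore not be formed.

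Levels of the 15 detected genes spanned a wide range, also among those of the plus strand alone, which leaves out MT-ND6. By CPM per kilobase of gene length, the median over 57 libraries was 13488 for MT-CO3, 9928 for MT-CO2 and 9433 for MT-CO1, which encode the catalytic core of complex IV. MT-ATP6, the proton channel subunit of ATP synthase, followed at 7883. MT-ND4 of complex I stood at 5725, MT-CYB, the cytochrome b of complex III, at 5596 and MT-RNR2 at 5531. These 3 could not be ranked: MT-ND4 exceeded MT-CYB in 31 of 57 libraries, and MT-CYB exceeded MT-RNR2 in 34 of 57. MT-ND3 (3935) and MT-ND4L (3922) were also alike, with MT-ND3 above in 27 of 57 libraries, and so were MT-ND1 (2996) and MT-ND2 (2935), with MT-ND1 above in 27 of 57. At the lower end stood MT-ATP8 (1759), MT-ND5 (1412), MT-RNR1 (1003) and MT-ND6 (492), in that order in at least 51 of 57 libraries for each neighbouring pair. MT-RNR1 lies upstream of MT-RNR2 on the same precursor, and its level per kilobase was lower in each of the 57 libraries.

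**Figure D1:**
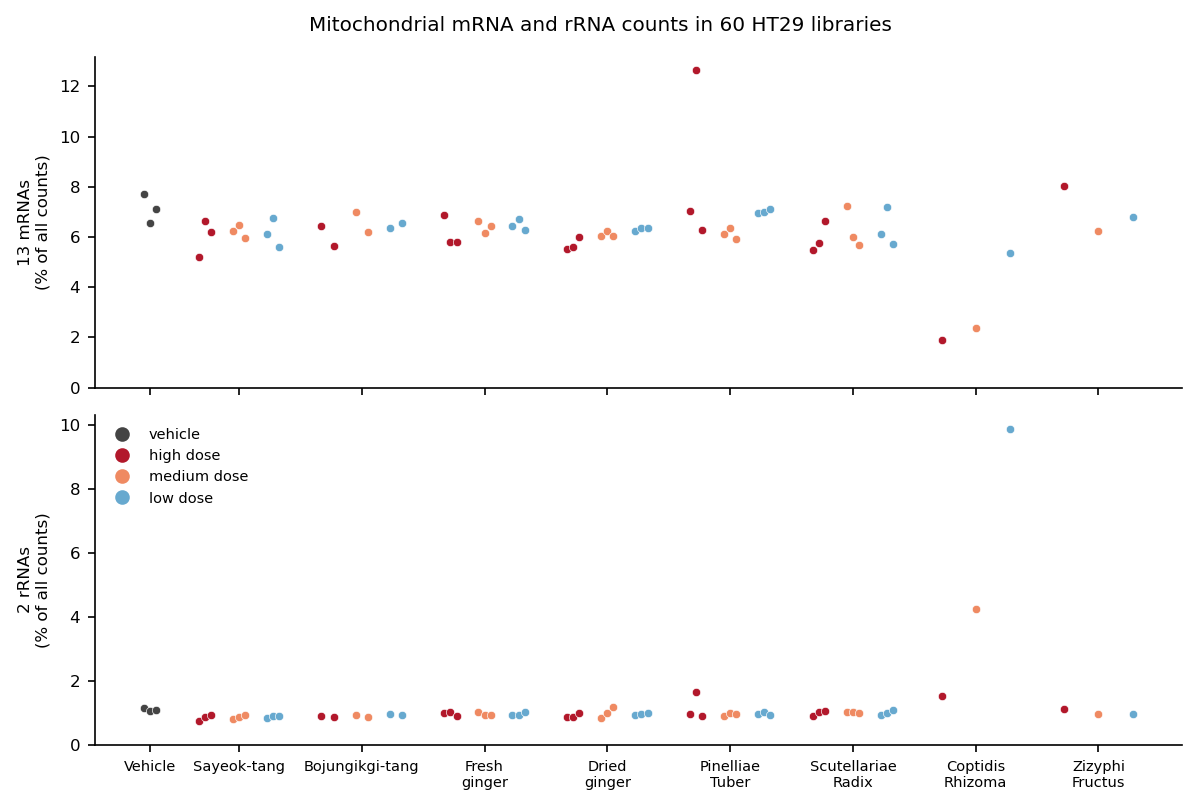
Share of all counts taken by mitochondrial mRNAs and rRNAs, in percent, in each of 60 libraries, with 1 point a library, grouped by extract and coloured by dose. The rRNA share lies between 0.744% and 1.67% in 57 libraries and reaches 1.53%, 4.26% and 9.88% at the high, medium and low dose of Coptidis Rhizoma.

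In the Coptidis Rhizoma libraries mitochondrial mRNAs were mostly lower than in vehicle, and both rRNAs were higher. The mRNAs took 1.91% of all counts at the high dose, 2.35% at the medium dose and 5.34% at the low dose, against 5.19% or more in the other 57 libraries. The rRNAs took 1.53%, 4.26% and 9.88% at the same doses. Summed, the mitochondrial share was 3.44% (95% Wilson interval 3.43% to 3.45%) at the high dose, 6.61% (6.60% to 6.62%) at the medium and 15.22% (15.21% to 15.24%) at the low dose, where the intervals cover counting error only. In bulk RNA, fewer cells that carry a transcript and less of it per cell cannot be told apart. The summed share lay below the range of the 57 at the high dose, inside it at the medium dose and above it at the low dose.

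The ratio of mRNA to rRNA counts set each of the 3 libraries apart. It was 1.25 at the high dose, 0.553 at the medium dose and 0.540 at the low dose, and the lowest of the other 57 libraries had 5.09. Ribosomal RNA made up 44.4%, 64.4% and 64.9% of mitochondrial counts at the 3 doses, and 11.6% to 16.4% elsewhere. The rRNAs did not keep their proportion either. MT-RNR1 had 0.242, 0.473 and 0.245 counts per MT-RNR2 count at the high, medium and low dose, against 0.0991 to 0.149 in the 57 others. Each dose is 1 library, so these differences have no replicate check.

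**Figure D2:**
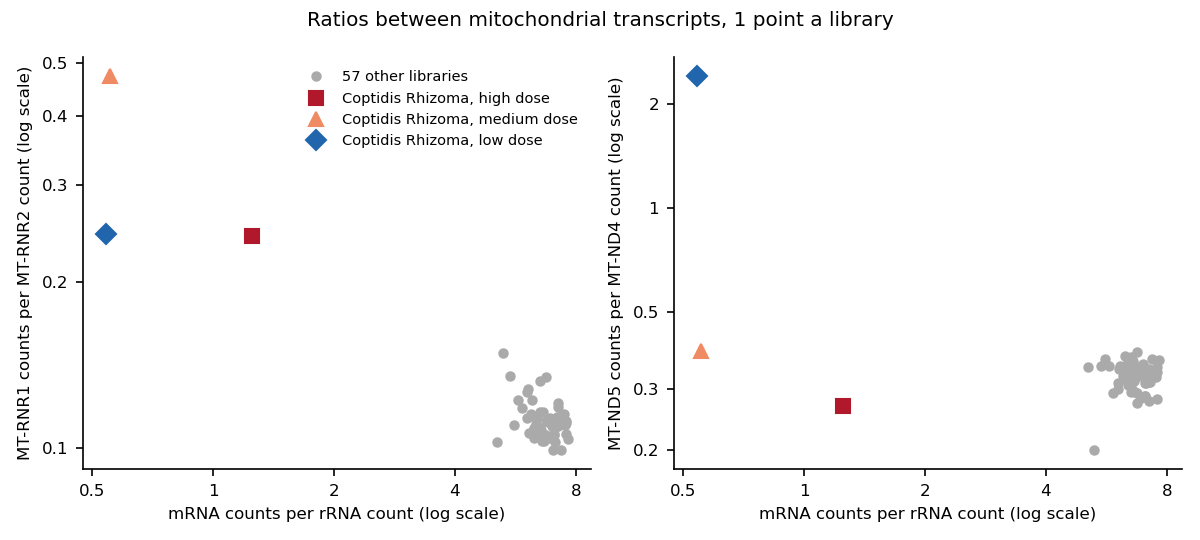
Ratios between mitochondrial transcripts on log scales, 1 point a library. The x axes give mRNA counts per rRNA count, and the y axes give MT-RNR1 counts per MT-RNR2 count (left) and MT-ND5 counts per MT-ND4 count (right). The 57 other libraries cluster at 5.09 to 7.64 on x, and only the low dose of Coptidis Rhizoma lies far up on the right, at 2.41.

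MT-RNR1, the rRNA of the small mitochondrial ribosomal subunit, had 1357, 1221 and 1275 CPM in vehicle. It had 2977 CPM at the high dose, 13674 at the medium dose and 19451 at the low dose of Coptidis Rhizoma. The log2 ratios to the vehicle mean, with 0.5 CPM added to both, were 1.21, 3.41 and 3.92. MT-RNR1 in these 3 libraries lay above every other library, where the highest value was 1674 CPM. Among 13377 genes with a mean of at least 1 CPM, its log2 ratio was the highest at the low dose and ranked 2 from the top at the medium dose.

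MT-RNR2, the rRNA of the large subunit, had 10082, 9527 and 9640 CPM in vehicle. At the high dose it had 12293 CPM, within the range of the 57 others (6705 to 15054 CPM). It reached 28890 CPM at the medium dose and 79382 CPM at the low dose, with log2 ratios of 1.57 and 3.03. The low dose thus gave the largest excess of both rRNAs over vehicle, while the rRNA median was lowest at the high dose.

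Complex IV mRNAs were below the other libraries at every dose. MT-CO3, the subunit III gene (ENSG00000198938, chrM:9207-9990), had 13809, 11276 and 11030 CPM in vehicle. It had 3455 CPM at the high dose, 3219 at the medium dose and 3666 at the low dose, with log2 ratios of -1.80, -1.90 and -1.72. The lowest of the 57 other libraries had 7624 CPM, so the groups did not overlap. MT-CO1, which carries the oxygen-reducing centre, had 4288, 5585 and 8149 CPM against a vehicle mean of 15531 ± 572 CPM (SD, n = 3). MT-CO2, which takes electrons from cytochrome c, had 2165, 2622 and 3691 CPM against 8768 ± 1186.

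ATP synthase mRNAs were lowest at the high dose. MT-ATP6 had 1611, 2121 and 2639 CPM at the high, medium and low dose, against a vehicle mean of 6302 ± 692 CPM. MT-ATP8, a small accessory subunit, had 86.1, 144 and 170 CPM. Its 3 vehicle libraries had 745, 482 and 309 CPM, a wide spread with vehicle replicate 1 on top. Both genes were below the 57 others in each Coptidis Rhizoma library.

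Complex I mRNAs parted by position. MT-ND1, next to the rRNAs, had 1070 and 1261 CPM at the high and medium dose against a vehicle mean of 3432 ± 586 CPM, but 4602 CPM at the low dose. MT-ND2 had 1028, 1310 and 4455 CPM against 3339 ± 300. MT-ND4, in the middle of the genome, had 2219, 2909 and 4275 CPM against 8869 ± 802 and stayed below vehicle at every dose. MT-ND3 (448, 433 and 829 CPM) and MT-ND4L (207, 303 and 455 CPM) likewise stayed below their vehicle means of 1806 ± 283 and 830 ± 144 CPM.

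MT-ND5, a proton-pumping subunit of complex I and the neighbour of MT-ND6 on the map, showed the widest swing with dose. It had 2530, 2723 and 2836 CPM in vehicle, and 592, 1123 and 10308 CPM at the high, medium and low dose. The log2 ratios were -2.19, -1.26 and 1.93, the last of which ranked 3 from the top among 13377 genes. No other library exceeded 5354 CPM. MT-ND5 counts per MT-ND4 count were 0.267, 0.386 and 2.41, and 0.199 to 0.384 in the 57 others.

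MT-ND6, a membrane subunit of complex I (ENSG00000198695), had 612, 364 and 299 CPM in vehicle. It had 102 and 184 CPM at the high and medium dose and 891 CPM at the low dose, the highest level of the 60 libraries. Its share of mRNA counts was 0.536%, 0.782% and 1.67%, against 0.318% to 0.793% in the 57 others. The kit keeps the strand of the RNA, but the sources used here do not give the strand setting of the authors' counting. Without it, reads of MT-ND6 and of plus-strand RNA running past the end of MT-ND5 cannot be told apart. MT-CYB followed MT-ND5 on the map with 1850, 2312 and 9287 CPM against a vehicle mean of 6767 ± 693.

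**Figure D3:**
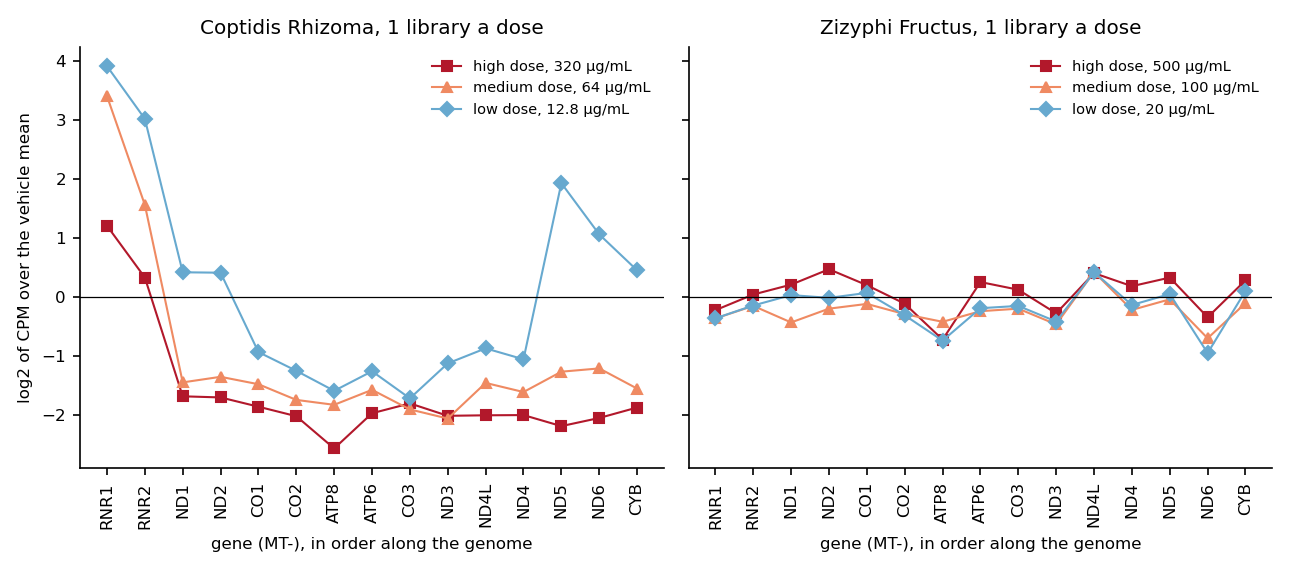
Log2 ratio to the vehicle mean (0.5 CPM added) of the 15 detected mitochondrial genes in map order, for the 3 libraries of Coptidis Rhizoma and the 3 of Zizyphi Fructus, 1 line a dose. At the high and medium dose of Coptidis Rhizoma all 13 mRNAs lie below 0, while the low dose dips in the middle of the genome and lies above 0 at MT-ND1, MT-ND2 and the last 3 genes.

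Read along the map, the low dose of Coptidis Rhizoma fell into blocks. MT-ND1 and MT-ND2 had a median log2 ratio of 0.42, the 8 genes from MT-CO1 to MT-ND4 one of -1.19 (-1.72 to -0.87), and MT-ND5, MT-ND6 and MT-CYB one of 1.07. At the high dose the same blocks had medians of -1.69, -2.001 and -2.05, and at the medium dose -1.40, -1.68 and -1.26. This pattern by position was thus seen in 1 library. Complex I genes took 48.3% of mRNA counts there, against 27.9% to 34.3% in the 57 others, and complex IV genes 29.03%, against 46.1% to 52.7%. At the high and medium dose complex I (29.6% and 32.0%) and complex IV (51.8% and 48.6%) stayed inside these ranges.

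Over the 13 mRNAs, the median log2 ratio to vehicle was -1.999 at the high dose (range -2.57 to -1.68), -1.55 at the medium dose (-2.06 to -1.21) and -0.93 at the low dose (-1.72 to 1.93). For the 2 rRNAs it was 0.77, 2.49 and 3.47. The median over all genes was 0.07, 0.08 and -0.06 at the 3 doses. At the high dose all 13 mRNAs were over 2-fold lower, where 6.17% of 13377 genes were, and 1 member, MT-RNR1, was over 2-fold higher, where 7.39% of genes were. At the medium dose 13 members were over 2-fold lower, against 0.516% of genes, and 2 were over 2-fold higher, against 0.815%. At the low dose 6 members were over 2-fold lower, against 0.299% of genes, and 4 (MT-RNR1, MT-RNR2, MT-ND5 and MT-ND6) were over 2-fold higher, against 0.135%.

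Other abundant RNA classes of these libraries mostly kept to the range of the 57. The nuclear RNA MALAT1 had 1218, 839 and 851 CPM (483 to 1354 elsewhere) and ribosomal protein genes took 6.74%, 5.14% and 5.22% of counts (5.06% to 9.43% elsewhere). Histone genes took 0.0177% at the high dose, above the 0.00697% reached elsewhere, and ACTB had 2207 CPM there, below the lowest value elsewhere (3183 CPM). Their part in the mitochondrial values was not tested. Of the nuclear copies, which share sequence with members, MTATP6P1 had 251, 445 and 553 CPM (555 to 2433 elsewhere) and MTND2P28 39.3, 35.2 and 169 CPM (56.6 to 195 elsewhere). MT-ND1, MT-ND4 and MT-CO2 had estimated counts that were not whole numbers in 100% of libraries, and MT-ND2, MT-CO1 and MT-ATP6 in 98.3%. For MT-CO3 this held in 51.7% of libraries, for MT-RNR2 in 5%, for MT-ATP8 in 3.33% and for MT-ND5 in 1.67%. Reads were shared out between loci there, and these levels are uncertain by that share. MT-RNR1, MT-ND3, MT-ND4L, MT-ND6 and MT-CYB had whole counts throughout.

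Zizyphi Fructus, from the same code set as Coptidis Rhizoma, stayed near vehicle. Its mitochondrial share was 9.15%, 7.24% and 7.77% at the high, medium and low dose, and its mRNA to rRNA ratio was 7.19, 6.38 and 6.89. The 15 genes had log2 ratios between -0.95 and 0.47, and 0 members passed 2-fold at any dose, where 0.306%, 0.187% and 0.179% of genes were that much lower and 0.0897%, 0.105% and 0.0748% that much higher. MT-RNR1 had 1103, 1001 and 1002 CPM, below all 3 vehicle libraries.

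Taking the 3 doses as 1 group, 9 libraries of Coptidis Rhizoma, Zizyphi Fructus and vehicle were fitted with edgeR's quasi-likelihood test, with Benjamini-Hochberg adjustment over 15620 genes. Coptidis Rhizoma against vehicle had 1 member called, where 0.0256% of genes were called. It was MT-CO3, which fell by 1.83 ± 0.16 on the log2 scale (SE, adjusted p = 0.00266). At an unadjusted p under 0.05 there were 10 of 15 members, and 3445 of the 15620 genes. MT-RNR1 had a log2 fold change of 3.23 ± 0.56 and MT-RNR2 one of 2.06 ± 0.56, with adjusted p of 0.140 and 0.143. MT-ND5 (0.62 ± 0.85) and MT-ND6 (-0.09 ± 0.69) had standard errors as large as their differences, since the low dose lay on the other side of vehicle.

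MT-CO3 was also the member called between Coptidis Rhizoma and Zizyphi Fructus, where 0.0064% of genes were called, with a log2 difference of -1.71 ± 0.16 (adjusted p = 0.0182). Zizyphi Fructus against vehicle had 0 members called by edgeR or by DESeq2 (background 0.0192%). At an unadjusted p under 0.05 in edgeR there were 0 members and 1117 of 15620 genes. Members vary by dose within Coptidis Rhizoma, which widens the spread of this fit. Without the low dose all 13 mRNAs were called lower than vehicle (MT-ND6 -1.66, adjusted p = 0.0434, to MT-ATP8 -2.25, adjusted p = 0.0265) and MT-RNR1 higher (2.61, adjusted p = 0.0304), while MT-RNR2 missed the threshold (0.99, adjusted p = 0.0729). The share of all genes called in this refit is not given here, so these calls have no background beside them. The call of MT-CO3 against Zizyphi Fructus held in 3 of 9 fits with 1 library left out. It ended without the medium dose of Coptidis Rhizoma (edgeR adjusted p = 0.240), without each Zizyphi Fructus library in turn (0.0957 to 0.124) and without vehicle replicate 2 (0.0806) or 3 (0.0718). With the 6 libraries paired by dose step as a block and no vehicle in the fit, the log2 difference was -1.72 and the adjusted p 0.699.

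The nuclear genes that serve the mitochondrial genome showed no shift of that size in Coptidis Rhizoma. Of 10 genes of mitochondrial transcription, 0 were over 2-fold higher at any dose and 1, MRPL12, was over 2-fold lower at the high dose (log2 ratio -1.51). POLRMT, the polymerase, had 40.7, 51.6 and 41.2 CPM against a vehicle mean of 43.4 ± 0.748, and TFAM, which binds the promoters and packages the DNA, had 129, 113 and 111 CPM against 115 ± 1.68. Their list had median log2 ratios of -0.16, -0.03 and -0.06, against 0.07, 0.08 and -0.06 over all genes. Of 31 genes of mitochondrial RNA processing, 0 passed 2-fold, with medians of -0.04, 0.00 and -0.10. Of 16 genes of mitochondrial DNA replication, 1 was over 2-fold lower at the high dose. Over all genes 6.17%, 0.516% and 0.299% were over 2-fold lower at the high, medium and low dose. Those over 2-fold higher were 7.39%, 0.815% and 0.135%.

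Nuclear subunits of the same machines had negative medians, in Zizyphi Fructus as well. The 78 mitochondrial ribosomal proteins had medians of -0.27, -0.25 and -0.27 at the high, medium and low dose, and Zizyphi Fructus had -0.17, -0.08 and -0.13. Nuclear complex I genes (37) had -0.15, -0.32 and -0.28, complex III genes (9) -0.29, -0.29 and -0.26, and complex IV genes (12) -0.06, -0.48 and -0.31. In Zizyphi Fructus complex I genes had -0.23, -0.10 and -0.12, complex III genes -0.18, -0.12 and -0.11, and complex IV genes -0.31, -0.17 and -0.22. At the high dose of Coptidis Rhizoma 2 of the 78 ribosomal protein genes, MRPL16 (-1.28) and MRPS25 (-1.19), were over 2-fold lower. Of 15 nuclear ATP synthase genes, 3 were over 2-fold lower at the high dose: ATP5MC1 (-1.43), ATP5F1D (-1.05) and ATP5MC2 (-1.03). Over all genes 6.17% were that much lower at this dose. None of the nuclear genes of these 5 lists passed 2-fold at the medium or low dose, while all 13 mitochondrial mRNAs did at the medium dose.

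Some genes of the mitochondrial and integrated stress response were over 2-fold higher. Of 23 expressed genes 10, 5 and 1 were so at the high, medium and low dose, beside 7.39%, 0.815% and 0.135% of all genes. The list medians were 0.67, 0.25 and 0.00, and 6, 3 and 11 of the 23 lay below the vehicle mean. CHAC1, which breaks down glutathione, had 86.8, 28.1 and 5.44 CPM against a vehicle mean of 2.36 ± 0.398. ASNS, the asparagine synthetase, had 817, 290 and 95.7 CPM against 59.1 ± 1.37. DDIT3, a transcription factor of the stress response, had 109, 13.2 and 6.42 CPM against 6.39 ± 0.258. The median deficit of the mitochondrial mRNAs was likewise largest at the high dose, and the median excess of the rRNAs was smallest there.

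**Figure D4:**
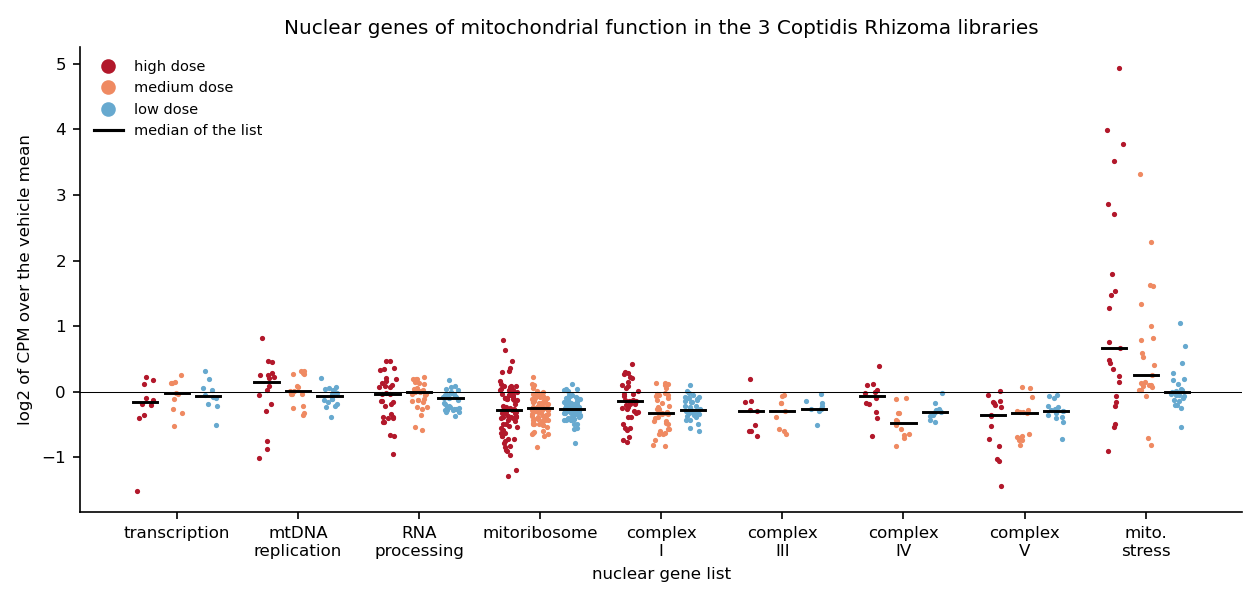
Log2 ratio to the vehicle mean of the expressed genes of each nuclear list in the 3 libraries of Coptidis Rhizoma, 1 point a gene, with a bar at the median of the list. The stress response list spreads upward at the high dose (median 0.67), and some genes of the other lists lie below -1 there.

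For the 6 extracts with replicates, each dose was compared with vehicle by edgeR's quasi-likelihood test on 54 libraries, with Benjamini-Hochberg adjustment over 16763 genes. In these 18 contrasts, 12 of 270 member tests were called (4.44%), against 4.36% of the tests of all genes. Calls of members were therefore about as frequent as those of other genes. By extract, at the high, medium and low dose, 0.626%, 1.49% and 0.424% of genes were called in Bojungikgi-tang, 6.36%, 2.16% and 3.1% in fresh ginger, and 5.12%, 2.11% and 0.549% in Pinelliae Tuber, with 0 of 15 members called in each. In dried ginger the medium and low dose had 1.06% and 1.99%, and in Scutellariae Radix 9.53% and 0.382%, again with 0 members. Of the 12, 11 were lower and 1 was higher, and 86 of the 270 tests had an unadjusted p under 0.05. Per contrast that was 1 to 8 of 15 members, and 1983 to 5907 of the 16763 genes. The member median was below 0 in 17 of 18 contrasts and ranged from -0.46 to 0.32, while the median over all genes ranged from -0.02 to 0.01.

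MT-RNR1 was called lower in 4 contrasts and was below vehicle in all 18 (median log2 fold change -0.51). The vehicle libraries had 1357, 1221 and 1275 CPM. Sayeok-tang had 735, 886 and 974 CPM at the high dose, 766, 795 and 949 at the medium and 838, 859 and 922 at the low dose. No Sayeok-tang library reached the vehicle range. The log2 fold changes were -0.60 ± 0.16 (adjusted p = 0.0281, 2.85% of genes called), -0.65 ± 0.16 (adjusted p = 0.0350, 0.793%) and -0.61 ± 0.16 (adjusted p = 0.0281, 3.3%), with edgeR and Benjamini-Hochberg adjustment. Dried ginger at the high dose had 859, 850 and 1011 CPM and fell by 0.53 ± 0.16 (adjusted p = 0.0231, 13.1% of genes called).

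MT-ND6 was called lower in 4 contrasts and was below vehicle in 17 of 18. At the high dose it had 234, 237 and 218 CPM in Sayeok-tang, 255, 254 and 252 in dried ginger and 246, 246 and 277 in Scutellariae Radix, against 612, 364 and 299 in vehicle. None of these libraries reached the vehicle range. The log2 fold changes from edgeR were -0.93 ± 0.26 in Sayeok-tang (adjusted p = 0.0417), -0.77 ± 0.26 in dried ginger (adjusted p = 0.0412) and -0.73 ± 0.26 in Scutellariae Radix (adjusted p = 0.0368, 23.6% of genes called). At the low dose of Sayeok-tang it was -0.89 ± 0.26 (adjusted p = 0.0467).

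Among complex IV genes, MT-CO3 fell by 0.48 ± 0.15 with Scutellariae Radix at the high dose (adjusted p = 0.0162 in edgeR), with 7624, 8830 and 9274 CPM. It fell by 0.46 ± 0.15 with dried ginger at the high dose (adjusted p = 0.0364), with 8827, 8409 and 9514 CPM. All 6 libraries were below the lowest vehicle library (11030 CPM). MT-CO2 fell by 0.49 ± 0.17 with dried ginger at the high dose (adjusted p = 0.0469).

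MT-ND4L, a small membrane subunit of complex I (ENSG00000212907), was the only member called higher. It had 672, 864 and 953 CPM in vehicle and 1418, 1302 and 1254 CPM with Scutellariae Radix at the high dose. Its log2 fold change was 0.69 ± 0.19 (adjusted p = 0.00779 in edgeR). MT-ND4L was above vehicle in all 18 contrasts, with log2 fold changes of 0.21 to 0.69, and 14 of them had an unadjusted p under 0.05. The gene shares 7 bases with MT-ND4, far fewer than a read holds, and its counts were whole numbers throughout. MT-ND4 was lower than vehicle in 17 of 18 contrasts.

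**Figure D5:**
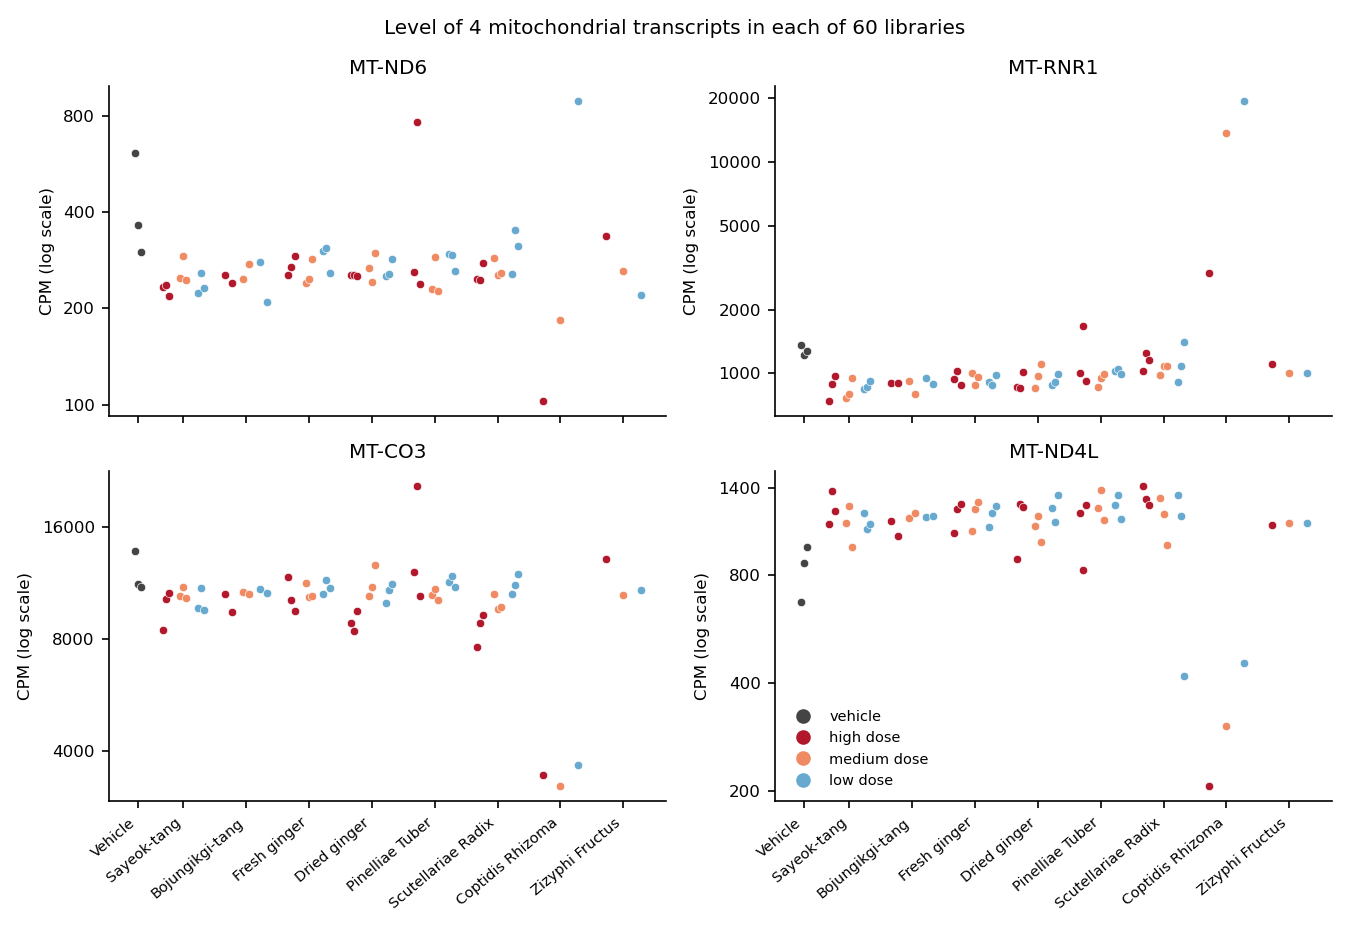
CPM on a log scale of MT-ND6, MT-RNR1, MT-CO3 and MT-ND4L in each of 60 libraries, 1 point a library, by extract and dose. Most treated libraries without Coptidis Rhizoma lie below vehicle for MT-ND6 and MT-RNR1 and above it for MT-ND4L.

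For some members these offsets were shared by extracts and doses. Of the nuclear copies, MTND4P12 was called lower in all 18 contrasts, MTND1P8 higher in 3 and MTND1P23 lower in 2, and reads of MT-ND4 and MT-ND1 can be counted there. Of 51 treated libraries in replicated groups, 48 were below every vehicle library for MT-RNR1, 49 for MT-RNR2, 49 for MT-CO2 and 46 for MT-ND6, and 48 were above every vehicle library for MT-ND4L. The 18 contrasts use the same 3 vehicle libraries, which have a code set of their own, so treatment and code set cannot be told apart. All 12 calls ended without vehicle replicate 1 (adjusted p 0.0707 to 0.513), which had the highest MT-ND6 and the lowest MT-ND4L of its group. MT-ND6 then stood at -0.55 and -0.51 at the high and low dose of Sayeok-tang, -0.40 in dried ginger and -0.35 in Scutellariae Radix, each over 1.5 times smaller than with it. MT-RNR1 stood at -0.55, -0.59 and -0.55 in Sayeok-tang and -0.47 in dried ginger. Over all 54 fits with 1 library left out, the call of MT-ND6 at the low dose of Sayeok-tang held in 9, that of MT-CO2 in dried ginger in 26 and the other 10 in 49 to 53 each, and 57 calls were made without Pinelliae Tuber high-dose replicate 2. Without all 3 libraries that stand apart there were 30 calls, 25 lower and 5 higher. The share of all genes called is not given for these refits, so their counts of calls have no background. Each call but that of MT-ND4L also ended without at least 1 library of its treated group (adjusted p 0.0519 to 0.202). In Sayeok-tang 4 of the 12 ended without vehicle replicate 2 (0.0506 to 0.0685) and MT-RNR1 at the medium dose without vehicle replicate 3 (0.0505).

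High against low dose avoids the vehicle libraries. With edgeR, 0 of 15 members were called in each of the 6 extracts, where 0.382% of genes were called in Sayeok-tang, 0.0656% in Bojungikgi-tang, 0.489% in fresh ginger, 4.34% in dried ginger, 1.78% in Pinelliae Tuber and 22.5% in Scutellariae Radix. At an unadjusted p under 0.05 there were 12 of 90 member tests, 10 of them in Pinelliae Tuber, and DESeq2 called 1. Of all 16763 genes, 3327 were under it in Pinelliae Tuber and 5826 in Scutellariae Radix. Dried ginger had 2210, fresh ginger 1106, Sayeok-tang 1004 and Bojungikgi-tang 565. In Pinelliae Tuber the member median was 0.40, with replicate 2 of the high dose far above the rest. MT-CO3 had 12108, 20704 and 10475 CPM at its high dose and 11402, 11810 and 11051 at its low dose. Without high-dose replicate 3 of Pinelliae Tuber 13 members were called over the 6 extracts, without replicate 1 there were 10, and without replicate 2 there was 1. These refits, too, are given without the share of all genes called.

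In Scutellariae Radix, where the most genes changed with dose, no member was called. MT-CO3 had 7624, 8830 and 9274 CPM at the high dose and 10553, 11208 and 11960 at the low dose, with a log2 difference of -0.37 ± 0.15 (edgeR adjusted p = 0.0689). The groups did not overlap, but the test missed the threshold. MT-ND4L had a log2 difference of 0.48 ± 0.19 (adjusted p = 0.0670), with low-dose replicate 3 at 419 CPM and the other low-dose libraries at 1339 and 1163. The member median was -0.07, and that of all genes -0.02.

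Nuclear genes of the same complexes were called lower in Scutellariae Radix at the high against the low dose, but not without low-dose replicate 3. Of nuclear complex I genes 12 of 37 were called lower, of complex III 6 of 9, of complex IV 7 of 12, of ATP synthase 9 of 15 and of mitochondrial ribosomal proteins 13 of 78, and 0 were called higher, with medians of -0.33, -0.33, -0.37, -0.28 and -0.18. In this contrast 22.5% of all genes were called and 11.7% were called lower, against 16.7% of the mitochondrial ribosomal proteins. NDUFA2 of complex I (-0.58 ± 0.14, adjusted p = 0.00286), COX5B of complex IV (-0.55 ± 0.14, adjusted p = 0.00454) and UQCRC1 of complex III (-0.26 ± 0.08, adjusted p = 0.0104) are examples. Without low-dose replicate 3 alone, which had 9.43% of counts in ribosomal protein genes, 0 genes of these 5 lists were called lower, where 6.98% of all genes were, and the medians were -0.04, -0.06, -0.01, -0.04 and 0.05. Without vehicle replicate 1 alone 14, 6, 7, 9 and 17 were called lower, where 12.4% of all genes were. Without Pinelliae Tuber high-dose replicate 2 alone 25, 7, 11, 13 and 20 were, where 15.1% of all genes were. Without all 3 libraries NDUFA2 was called at -0.23 (adjusted p = 0.0270), and COX5B had an adjusted p of 0.210.

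Stress response genes were called with and without those libraries. In Scutellariae Radix 9 of 23 were called higher at the high than at the low dose, where 1798 of 16763 genes were. Without the 3 libraries 17 were called higher and 2 lower. ASNS rose by 0.96 ± 0.06 on the log2 scale (edgeR adjusted p = 1.7e-16), and by 1.04 without the 3 libraries. In dried ginger 9 of 23 were called higher, where 385 of 16763 genes were. ASNS stood at 1.00 ± 0.06 (edgeR adjusted p = 1.0e-16) and CHAC1 at 1.57 ± 0.16 (adjusted p = 4.7e-10). Without the 3 libraries 12 were called higher. The share of all genes called higher is not given for the fits without the 3 libraries. Neither extract at the high dose had the mRNA to rRNA ratio of Coptidis Rhizoma. Their 6 libraries are among those that define the range of 5.09 to 7.64, so lying within it is no separate result.

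The dose effects of MT-CO3 differed between Pinelliae Tuber and Scutellariae Radix. The interaction, the log2 difference of high and low dose in Pinelliae Tuber minus that in Scutellariae Radix, was 0.80 ± 0.21 (edgeR adjusted p = 0.0112), and 9.58% of genes were called. MT-CO3 was the only member called. At an unadjusted p under 0.05 there were 7 of 15 members, and 4204 of 16763 genes. Without Pinelliae Tuber high-dose replicate 2 the interaction was 0.36 (adjusted p = 0.141). Sayeok-tang against Bojungikgi-tang and fresh against dried ginger had 0 members called by edgeR, DESeq2 or at an unadjusted p under 0.05 in edgeR, where 0% and 0.644% of genes were called. Unadjusted, 295 and 892 of all genes were under 0.05.

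Balance between the RNA kinds showed no common dose trend in the 6 extracts. Between high and low dose (34 libraries), the mitochondrial share changed by a mean log2 difference of -0.03, the mRNA to rRNA ratio by -0.04, the MT-ND6 share of mRNA by 0.03 and the ratio of MT-RNR1 to MT-RNR2 by 0.03. The ratio of distal to proximal mRNAs changed by 0.01. In a 2-sided permutation test with labels exchanged within extracts, each of the 5 had a Benjamini-Hochberg adjusted p of 0.739. Pinelliae Tuber was the exception for the mitochondrial share, with 0.23 against -0.14 to -0.04 in the other extracts. Without the 3 libraries that stand apart, the mitochondrial share (-0.09) and the ratio of MT-RNR1 to MT-RNR2 (0.06) had an adjusted p of 0.0313 each. Those libraries were picked partly by the mitochondrial share itself, so these p-values are a description and decide nothing.

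Those 3 libraries were set apart partly by their mitochondrial share, so the spread of the members without them is a description. Over the 54 libraries left without Coptidis Rhizoma, the coefficient of variation in CPM ran from 7.72% for MT-CO1 and 8.04% for MT-RNR2 to 15.9% for MT-ND1 and 16.3% for MT-ATP8. The highest level over the lowest was 1.46 for MT-CO1 and 2.30 for MT-ATP8. MT-ND6 had 12.1% without the 3 libraries and 30.7% with them, and MT-ATP8 had 16.3% and 30.5%. Pinelliae Tuber high-dose replicate 2 held the highest level of 14 of the 15 genes over the 57 libraries, the other being MT-ND4L.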

How the data were processed

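Per the labels' protocols, libraries were made with the MGIEasy RNA Directional kit and read as 100 bp pairs on an MGIseq instrument. The submitters' processing notes name STAR 2.7.3a, RSEM 1.3.3 and hg38, after FastQC 0.11.9 and Trim Galore 0.6.5. The authors deposited RSEM expected counts, estimated per Ensembl gene. The sources used here give neither the annotation release nor the strand setting. A further 210 columns, of samples outside the groups, were not used.

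Rounding made whole numbers of the expected counts. Symbols, positions and sequences were taken from GENCODE 29 on GRCh38. A sequence table of proteins was not used. CPM is per 1000000 of all counts. The members and the gene lists were chosen with earlier results of these data known. All 37 members were accounted for, with values in every library for those called in most contrasts. Of a nuclear list, up to 3 called genes of smallest p in a contrast were named, and up to 3 nuclear copies called in most contrasts. The nuclear genes named for Coptidis Rhizoma, which has 1 library per dose, were chosen after their values were seen, as were MTATP6P1 and MTND2P28.

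Replicated groups (54 libraries, 16763 genes, 35 residual degrees of freedom) and the 9 libraries of Coptidis Rhizoma, Zizyphi Fructus and vehicle (15620 genes) were fitted in edgeR 4.0.16 under R 4.3.3. Genes were kept by filterByExpr, scaled by TMM and tested with robust quasi-likelihood F tests, with Benjamini-Hochberg adjustment at 0.05. Each SE was taken as the log2 fold change divided by the square root of its F. In single libraries a gene counted as past 2-fold on the log2 scale with 0.5 CPM added. Ratios were tested with 100000 permutations within extracts in numpy 2.4.6.

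The scripts were tested on simulated data. For Sayeok-tang at the high dose against vehicle (16470 genes), they called 80% of 100 genes with a 1.5-fold change and 98% of 100 with a 2-fold change, and 5.32% of calls were false. For Coptidis Rhizoma against vehicle these were 20%, 83% and 4.63% (15640 genes). All genes of a simulation were given the same spread, and no library was made to stand apart. These rates therefore need not hold for the mitochondrial members. Alternatives were DESeq2 1.42.0, DESeq2 size factors, scaling by nuclear genes, no filter, replicate blocks, fewer libraries and each library left out. Total counts per library, in the report, set the counting precision.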

Additional observations from a re-analysis of the deposited data

Results flagged for a closer look

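The response of MT-CO3 to dose differed between Pinelliae Tuber and Scutellariae Radix by an interaction of 0.804 on the log2 scale (SE 0.213, edgeR adjusted p = 0.0112). MT-CO3 had 12108, 20704 and 10475 CPM at the high dose of Pinelliae Tuber and 11402, 11810 and 11051 at the low dose, against 7624, 8830 and 9274 and 10553, 11208 and 11960 in Scutellariae Radix. The call ended without Pinelliae Tuber high-dose replicate 2 (0.36, adjusted p = 0.141). Groups of 2 or 3 libraries were too small for a test of single outlying values.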

How the results depend on the processing

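Counts of members called changed with the settings, and the share of all genes called under each is not given here. Against vehicle the 12 calls became 25 in DESeq2, 148 when low counts were kept, 35 when a fit took only its own groups and 30 without the 3 libraries that stand apart, and 0 to 57 with each library left out in turn (0 without vehicle replicate 1, 57 without Pinelliae Tuber high-dose replicate 2). They became 7 without replicate 1 or 2 of the high dose of dried ginger, 25 and 28 without replicates 1 and 3 of the high dose of Pinelliae Tuber and 37 without Scutellariae Radix low-dose replicate 3. High against low dose, the 0 calls became 1 in DESeq2, 18 with low counts kept, 1 with only its own groups, 1 without the 3 libraries, and 0 to 13 with 1 library left out. For dose effects between extracts, the 1 call became 11 with low counts kept, 0 with only its own groups, 0 without the 3 libraries, and 0 to 8 with 1 library left out. In the fit of Coptidis Rhizoma and Zizyphi Fructus, the 2 calls became 19 in DESeq2, 4 with low counts kept, 20 with all 60 libraries in the fit (an alternative chosen after seeing the data), and 1 to 26 with 1 library left out. The cause was not tested. Where a group of 2 lost a library, the lone one is assumed to vary like the others.

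Replicate numbers did not pair the libraries, since no contrast had every pair's correlation above 0.1. With the replicate number as a block there were 16 calls against vehicle, 0 high against low dose and 1 between extracts. With a block within code sets there were 14 against vehicle and 1 high against low dose. No paired analysis was possible by replicate number for Coptidis Rhizoma and Zizyphi Fructus because each dose had 1 library. Paired by dose step as a block (chosen after seeing the data), MT-CO3 had a log2 difference of -1.72 (edgeR adjusted p = 0.699), with 0 members called and 10 at an unadjusted p under 0.05.

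Medians of Coptidis Rhizoma kept their direction under each alternative, all chosen after seeing the data. With the mean of 54 other libraries in place of vehicle, the mRNA median was -1.75 at the high and -1.36 at the medium dose, and the rRNA median 1.07, 2.79 and 3.77 at the high, medium and low dose. With nuclear counts as denominator the rRNA median was 0.70 at the high and 3.59 at the low dose. Without the 3 libraries the dose differences of the mitochondrial share (-0.0933) and the MT-RNR1 to MT-RNR2 ratio (0.0575) had a permutation adjusted p of 0.0313 each. The libraries were picked partly by the mitochondrial share itself, so these p-values are a description. The MT-ND6 share was -0.0203 with medians of replicates. With 1 library left out it ran from -0.0118 to 0.0656, the distal to proximal ratio from -0.00531 to 0.0258, the mRNA to rRNA ratio from -0.0562 to -0.0186, the mitochondrial share from -0.0842 to -0.00136, and the MT-RNR1 to MT-RNR2 ratio from 0.0162 to 0.0565.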
